A study of Homo sapiens with 2 samples.

Results

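The genes described here are 10 genes of the epithelial cell surface and of epithelial splicing: the claudins CLDN1, CLDN3, CLDN4 and CLDN7, the other tight junction genes OCLN, MARVELD2 and TJP1, the adhesion gene EPCAM, and the splicing regulators ESRP1 and ESRP2. They were chosen by name, as every probe set whose single gene symbol was one of these, and all 10 were found among 22465 measured genes, each with 1 probe set. They were measured in NCI-H446 cells, a long-established line of human small cell lung carcinoma, on 1 Affymetrix array of cells stably carrying a control vector and 1 array of cells stably carrying an MTA1 overexpression plasmid. MTA1 is a subunit of the NuRD complex, which removes histone acetyl groups and remodels nucleosomes. The sources used here do not say whether the stable cells were a pool or a single clone, or which promoter drives the plasmid. Each group had a single array, so there was neither a replicate check nor a test, and every difference describes these 2 arrays.

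Tight junctions seal the space between neighbouring epithelial cells. Claudins and the MARVEL-domain proteins occludin and tricellulin span the membrane and form the strands, and ZO-1 ties the strands to actin. EPCAM is an adhesion protein of simple epithelia that binds CLDN7, and the ESRP proteins direct the epithelial splice forms of genes such as FGFR2 and CD44. Snail and ZEB proteins are repressors that bind the E-box CACCTG and are known to act on claudin and occludin promoters.

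RefSeq promoter windows, each from 250 bases before to 50 bases after an annotated transcript start in GRCh38.p14, were listed for 7 of the 10 genes and matched by symbol, and EPCAM, ESRP1 and ESRP2 had no entry. The E-box letters CACCTG, read on both strands and so also as CAGGTG, occurred at least once in 20.6% of all 35116 windows. They occurred in 5 of the 12 windows of the 7 genes. These windows belonged to 4 genes, CLDN3, CLDN7, OCLN and TJP1, and no window of CLDN1, CLDN4 or MARVELD2 held a match. A share per gene over all genes was not counted. The CLDN7 window at the start further along the gene held 5 copies, a number reached by 0.094% of windows. CLDN3 had 1 match, starting 37 bases into the transcript. The 250 bases before the start are shown for CLDN1, because it had the largest difference between the arrays and no match, for the CLDN7 window with the most matches, and for OCLN and TJP1 with a single match in the part shown. Each sequence reads 5′ to 3′ on the strand of the gene, and capitals mark the E-box letters.
CLDN1, chr3:190322447-190322696, minus strand: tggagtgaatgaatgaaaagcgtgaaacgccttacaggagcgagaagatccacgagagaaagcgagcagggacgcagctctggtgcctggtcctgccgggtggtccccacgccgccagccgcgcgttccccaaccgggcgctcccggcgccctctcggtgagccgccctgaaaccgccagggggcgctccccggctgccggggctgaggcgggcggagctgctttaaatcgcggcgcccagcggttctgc
CLDN7, chr17:7262479-7262728, minus strand: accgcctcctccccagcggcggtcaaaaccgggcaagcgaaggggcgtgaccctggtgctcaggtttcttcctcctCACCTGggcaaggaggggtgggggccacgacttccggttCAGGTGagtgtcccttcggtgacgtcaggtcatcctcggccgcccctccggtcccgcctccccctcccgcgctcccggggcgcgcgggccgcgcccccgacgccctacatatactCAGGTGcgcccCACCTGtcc
OCLN, chr5:69492297-69492546, plus strand: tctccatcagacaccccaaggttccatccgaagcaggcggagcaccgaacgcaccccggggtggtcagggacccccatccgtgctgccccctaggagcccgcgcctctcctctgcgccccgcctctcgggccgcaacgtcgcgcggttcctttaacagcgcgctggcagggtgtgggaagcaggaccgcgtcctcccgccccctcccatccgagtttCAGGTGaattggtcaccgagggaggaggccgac
TJP1, chr15:29969050-29969299, minus strand: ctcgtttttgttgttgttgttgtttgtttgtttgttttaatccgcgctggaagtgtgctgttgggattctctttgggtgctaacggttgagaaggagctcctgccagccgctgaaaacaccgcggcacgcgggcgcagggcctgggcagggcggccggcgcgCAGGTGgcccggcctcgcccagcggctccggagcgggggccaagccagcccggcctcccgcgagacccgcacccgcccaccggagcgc
In CLDN7 the matches started 174, 135, 20 and 9 bases before the transcript start, and the remaining one lay just inside the transcript. The match of the OCLN window shown started 33 bases before its start, and that of TJP1 88 bases before. A second OCLN window, at a start further along the gene, held 2 matches, and the other 3 windows of TJP1 and the other window of CLDN7 held none. A match of letters is a description and not a measured binding site.

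The deposited values were log2 signals, with a median of 3.67 for the control and 3.68 for the MTA1 array. Some values exceeded 16, the log2 limit of a 16-bit scanner, so the values may hold a further transformation that no source used here describes, on which fold sizes would depend. The plasmid gene MTA1 itself had signals of 7.31 with the control vector and 9.82 with the plasmid. The signal floor was a log2 signal of 3.62, the median of all transcript clusters, and 14451 genes reached it on at least 1 array. It is not a detection limit: 23 background features of the array, grouped by their GC content, ranged from 2.18 to 6.61 on the control array and from 2.19 to 6.96 on the MTA1 array. Of the 10 genes, CLDN1 and TJP1 exceeded all of these features on both arrays and MARVELD2 on the control array alone. The other 7 lay within their range, and the GC content of the probes of each gene was not examined. The bacterial hybridisation spikes were 0.23 to 0.28 higher on the MTA1 array, and the 4 poly-A spikes 0.17 to 0.84 higher. Their part in the differences below was not tested, but a shift of the MTA1 array by the mean of the hybridisation spikes lowers every difference by 0.25 and moves the median of all genes from -0.013 to -0.26. Probe sets of the same gene differed in their MTA1 minus control difference with a pooled SD of 0.267, over 149 genes outside alternative contigs, which covers the array and not differences between cultures. Of the neuroendocrine markers that define most small cell lung carcinoma, CHGA, SYP, NCAM1, DDC, CHGB and SCG3 were below the floor on both arrays, INSM1 stood at 4.06 and 4.21, and UCHL1 at 5.30 and 5.21.

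Of the 10 genes, 9 were at or above the floor, each on both arrays, and ESRP1 was below it on both. None was at least 2-fold higher or lower on the MTA1 array, while among all genes at or above the floor 0.291% were higher and 0.339% lower by that size. CLDN1 was the only one past 1.5-fold, on the higher side, against 1.45% of all genes higher and 1.74% lower by that size. The median difference of the 9 genes was -0.037 on the log2 scale, with 4 genes above 0 and 5 below, and that of all genes was -0.013. Relative to the spikes 2 of the 9 genes, CLDN1 and CLDN3, were above 0, and the median of the 9 was -0.28, beside -0.26 for all genes.

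**Figure D1:**
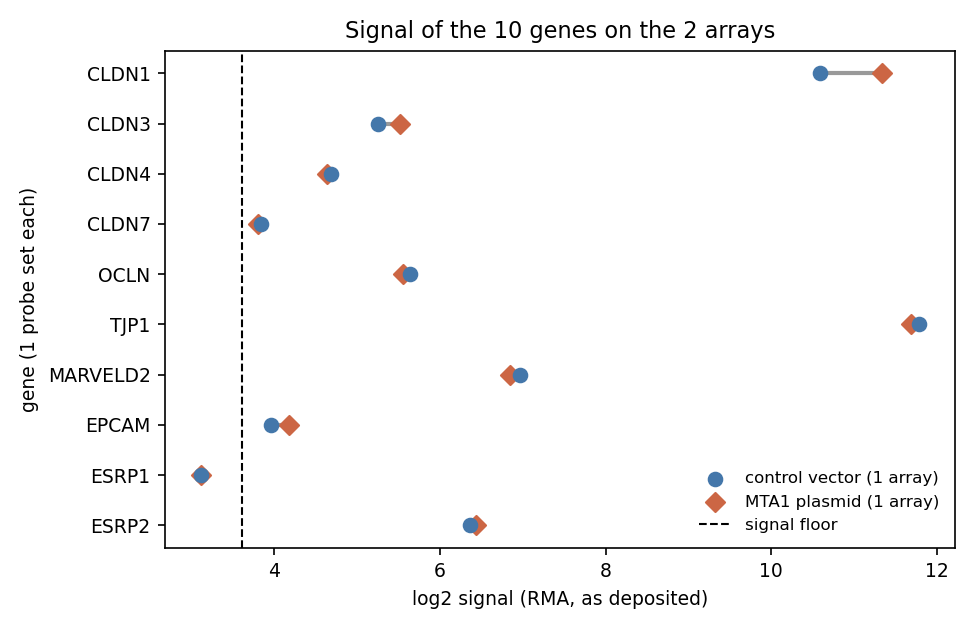
Log2 signal of each of the 10 genes on the control array (circles) and the MTA1 array (diamonds), 1 probe set and 1 array per point, with the signal floor of 3.62 as a dashed line. CLDN1 has the widest gap, from 10.59 to 11.33, and ESRP1 lies below the floor on both arrays.

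CLDN1, a strand-forming claudin of epithelia and epidermis, had a log2 signal of 10.59 with the control vector and 11.33 with the MTA1 plasmid. The difference was 0.75, or 1.68-fold, which is 2.80 times the SD between probe sets of the same gene. Among the 14450 other genes at or above the floor, 108, or 0.747%, were higher by at least as much. Among the 1549 genes with a mean signal within 1 log2 unit of that of CLDN1, 13 were. CLDN1 was higher on the MTA1 array under each scaling tried, by 0.50 to 0.77, and the lowest of these values came from the shift to the spikes, under which the median of all genes was -0.26.

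CLDN3 and CLDN4 are adjacent genes on chromosome 7, transcribed in opposite directions, and both encode receptors of a Clostridium perfringens enterotoxin. CLDN3 had signals of 5.25 in control cells and 5.52 in MTA1 cells, a difference of 0.27 or 1.20-fold, about as large as the SD between probe sets. A difference at least as high was found in 8.22% of other genes, and after the shift to the spikes that of CLDN3 was 0.02. CLDN4 was close to level, at 4.69 and 4.64, so the neighbours differed from each other in the sign and size of their difference, by little more than the spread between probe sets.

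CLDN7, the claudin that binds EPCAM, had signals of 3.84 and 3.80 on the control and MTA1 arrays, close to the floor. EPCAM itself was also near the floor, with signals of 3.96 and 4.18. Its difference of 0.22, or 1.16-fold, was smaller than the SD between probe sets, was reached by 11.4% of other genes on the higher side, and turned to -0.03 with the shift to the spikes. The signals of both genes lay inside the range of the background features, the top of which came from features of low GC content. The GC content of the probes was not examined, so neither gene could be told from background here. For the other genes of the set within that range the question was left unexamined in the same way. ESRP2 was below only the feature of lowest GC content, which stood at 6.61 on the control and 6.96 on the MTA1 array. OCLN and CLDN3 were below that feature and the next in GC content, at 6.19 and 5.71, and above all others.

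OCLN and MARVELD2, which encode occludin and tricellulin, are adjacent genes on chromosome 5. OCLN went from 5.64 to 5.56, a difference of -0.085, and MARVELD2, which acts at tricellular contacts, from 6.97 to 6.85, a difference of -0.12. Both lay below 0 under each scaling tried, at -0.33 and -0.36 after the shift to the spikes, beside -0.26 for all genes. As deposited, 33.0% and 26.3% of other genes were at least as much lower. RefSeq lists a transcribed pseudogene of OCLN, OCLNP1, on the same chromosome, and whether the probes tell them apart was not tested. TJP1, which encodes the scaffold ZO-1, had signals of 11.78 with the vector and 11.69 with the plasmid, a difference of -0.096 reached on the lower side by 30.9% of other genes.

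ESRP1 had a signal of 3.12 on both arrays, under the floor, so no direction is given for it. ESRP2, its paralogue, had signals of 6.36 and 6.43. The difference of 0.07, or 1.05-fold, was reached by 30.7% of other genes on the higher side and turned to -0.17 with the shift to the spikes. The values summarise a whole gene and carry no information on splice forms.

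**Figure D2:**
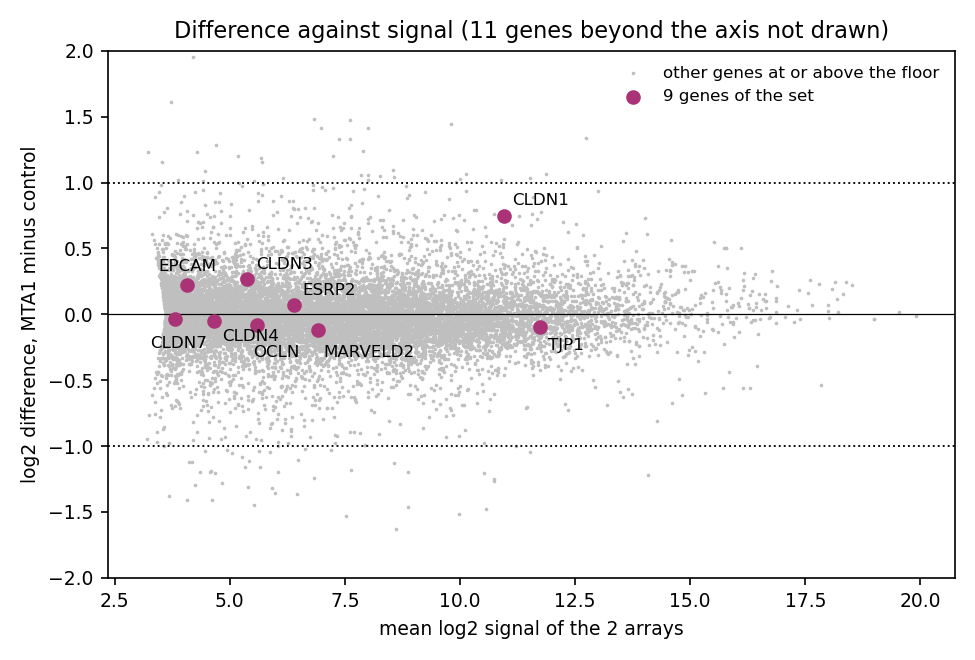
Log2 difference, MTA1 minus control, against the mean log2 signal of the 2 arrays for the genes at or above the floor (grey, 1 point per gene), with the 9 genes of the set in purple and dotted lines at 2-fold. CLDN1, at 0.75, lies at the upper edge of the cloud for its signal and under the 2-fold line, and the other 8 lie between -0.12 and 0.27, inside the cloud.

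Of 48 other tight junction genes listed, 45 had a probe set and 24 of these reached the floor. None of the 24 was 2-fold higher or lower, 11 were above 0 and 13 below, and their median was -0.021. After the shift to the spikes 2 of the 24 were above 0 and 22 below, with a median of -0.27, beside -0.26 for all genes. The largest higher difference was that of LSR, which encodes angulin-1, the receptor that brings tricellulin to tricellular contacts, at 5.32 with the vector and 5.92 with the plasmid, or 1.52-fold. PATJ, a scaffold of the Crumbs polarity complex, followed at 5.88 and 6.35, or 1.39-fold. On the lower side were CLDN22, at 4.18 and 3.68, and PARD3, the polarity scaffold, at 8.38 and 8.12. CLDN22 overlaps WWC2 in the probe annotation, where another probe set carries both names. LSR and PATJ stayed above 0, and CLDN22 and PARD3 below it, under each scaling tried. The signals of LSR, PATJ and CLDN22 lay within the range of the background features on both arrays. LSR was the only one of the 24 past 1.5-fold, against 1.45% of all genes higher by that size.

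Among the other claudins 6 of 18 reached the floor. CLDN12, a widely expressed claudin, stood at 4.80 and 5.02. CLDN14, CLDN15, CLDN16 and CLDN19 lay near the floor, between 3.62 and 3.90, and differed by at most 0.14 in size. CLDN12, CLDN14, CLDN16 and CLDN19, slightly above 0 as deposited, were below 0 after the shift to the spikes. The other 12, CLDN2, CLDN5 and CLDN18 among them, did not reach it on either array.

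Of 16 genes listed as partners or processing enzymes of EPCAM, 13 were at or above the floor, with a median of 0.031, 7 above 0 and 6 below. After the shift to the spikes 4 were above 0 and 9 below, with a median of -0.21, beside -0.26 for all genes. With the deposited values and the floor at percentile 75 the median was -0.005. The largest difference in the list was that of SPINT2, which encodes a Kunitz-type inhibitor of matriptase, the protease that cleaves EPCAM. SPINT2 had signals of 5.16 with the vector and 6.08 with the plasmid, a difference of 0.92 or 1.89-fold. The matriptase gene ST14, at 3.60 and 3.54, did not reach the floor. The tetraspanins TSPAN8 and CD9, membrane organisers that associate with EPCAM, were 1.46-fold and 1.23-fold higher. FHL2, the LIM protein that binds the intracellular fragment of EPCAM, was 1.25-fold higher. The sheddases ADAM10 and ADAM17, which release the outer part of EPCAM, differed by -0.07 and -0.16. SPINT2, TSPAN8, CD9 and FHL2 stayed above 0 under each scaling tried. The signals of SPINT2 and TSPAN8 lay within the range of the background features on both arrays. SPINT2 was the only gene of the list past 1.5-fold, against 1.45% of all genes higher by that size.

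Of 10 splicing regulators listed around the ESRP genes 9 were measured, all at or above the floor, and none was past 1.5-fold. As deposited 4 were above 0 and 5 below, with a median of -0.078. After the shift to the spikes, which lowers every gene alike, all 9 were below 0. Their median was then -0.32, beside -0.26 for all genes. SRSF1, a general splicing factor, was 1.25-fold lower, PTBP2, the neuronal tract-binding protein, 1.12-fold lower, MBNL1 1.08-fold lower and HNRNPM 1.06-fold lower. RBM47, another epithelial splicing regulator, stood at 6.51 and 6.55. Of the genes known to be spliced by ESRP proteins 6 were at or above the floor, with a median of -0.045. After the shift to the spikes all 6 were below 0, with a median of -0.29, again beside -0.26 for all genes. CD44, the hyaluronan receptor, stood at 13.38 and 13.63, NUMB, an endocytic adaptor, at 8.10 and 8.31, and ENAH, an actin regulator, at 11.59 and 11.37. CD44 and NUMB, above 0 as deposited, were at or below 0 after the shift to the spikes. FGFR2 was below the floor on both arrays.

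**Figure D3:**
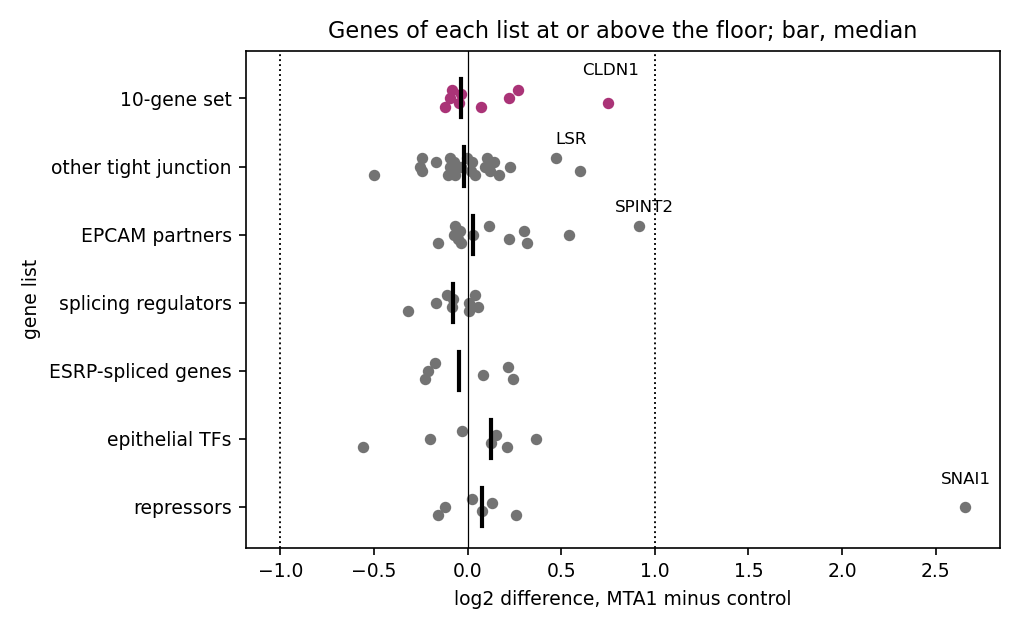
Log2 difference, MTA1 minus control, of the genes at or above the floor in the 10-gene set (purple) and 6 related lists (grey), 1 point per gene, with the list median as a black bar and dotted lines at 2-fold. CLDN1, LSR, SPINT2 and SNAI1 are the named points past 1.5-fold, and only SNAI1, at 2.66, is past 2-fold.

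Among repressors of epithelial genes, SNAI1, which encodes Snail, had the one difference past 2-fold, with 5.89 for the control and 8.55 for the MTA1 array, a difference of 2.66. The other 6 repressors at or above the floor differed by at most 0.26 as deposited. SNAI2, which encodes Slug, stood at 8.27 and 8.53, ZEB1 at 9.12 and 8.96, and TWIST2 at 5.29 and 5.42. Beside this difference of SNAI1, the genes with E-box letters in a window, CLDN3, CLDN7, OCLN and TJP1, differed by 0.27, -0.037, -0.085 and -0.096, and those without, CLDN1, CLDN4 and MARVELD2, by 0.75, -0.048 and -0.12. After the shift to the spikes the first 4 differed by 0.02, -0.28, -0.33 and -0.34 and the other 3 by 0.50, -0.29 and -0.36, beside a median of -0.26 for all genes. CLDN7 lay close to the floor, and EPCAM, ESRP1 and ESRP2 had no window. Whether SNAI1 or the E-box letters have a part in these differences was not tested. TWIST2, above 0 as deposited, was below 0 after the shift to the spikes. The control signal of SNAI1 and both signals of TWIST2 lay within the range of the background features, and the MTA1 signal of SNAI1 lay above it.

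Of 16 epithelial transcription factors 13 had a probe set and 7 of these reached the floor, with a median of 0.12. For the same 7 genes the median was 0.14 with centring and 0.17 with quantile normalisation. After the shift to the spikes it was -0.12, beside -0.26 for all genes. With the floor set anew, which can change the genes that reach it, the median was 0.08 with centring and 0.07 with quantile normalisation. With the deposited values and the floor at percentile 75 it was -0.03. The ETS factor EHF, which is expressed in epithelia, had the largest difference, from 6.58 to 6.02, or 1.47-fold lower. FOXA1, a pioneer factor of endodermal epithelia, was 1.29-fold higher, from 4.70 to 5.07. KLF4 stood at 6.71 and 6.92 and TFAP2C at 5.82 and 5.61. KLF4 turned below 0 after the shift to the spikes, while EHF, FOXA1 and TFAP2C kept their sign under each scaling. The signals of EHF, FOXA1 and TFAP2C lay within the range of the background features on both arrays. GRHL2, an activator of CLDN4 and other junction genes, was below the floor at 3.25 and 3.16, as were GRHL1, GRHL3, OVOL1 and OVOL2.

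The genes that neighbour the 10 on their chromosomes gave a local background. Within 3 measured protein-coding genes on each side, 40 neighbours were at or above the floor, 19 above 0 and 21 below, with a median of -0.006 and a range of -0.44 to 0.58. Next to CLDN1 on chromosome 3, P3H2, a collagen prolyl hydroxylase gene, went from 7.46 to 7.97 and IL1RAP, the interleukin-1 receptor accessory chain gene, from 7.08 to 7.36. CLDN16, the claudin gene beside CLDN1, stood at 3.62 and 3.71. All 4 genes of this neighbourhood that reached the floor, CLDN1 included, were thus above 0 as deposited, beside 46.4% of all genes at or above the floor. CLDN16, close to the floor, fell below 0 after the shift to the spikes. P3H2 and IL1RAP were named after their values were seen. Around OCLN and MARVELD2 the signs were alike too: RAD17, TAF9, CCDC125, NAIP, BDP1 and MCCC2 differed by -0.44 to -0.03, and the pair itself by -0.085 and -0.12. All of these but MCCC2 were smaller in size than the SD between probe sets. At the other loci the neighbours at or above the floor had mixed signs. Beside ESRP2, at 0.07, DDX28, DUS2, NFATC3, SLC7A6 and SLC7A6OS differed by -0.35 to -0.19, and PLA2G15 by 0.06.

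**Figure D4:**
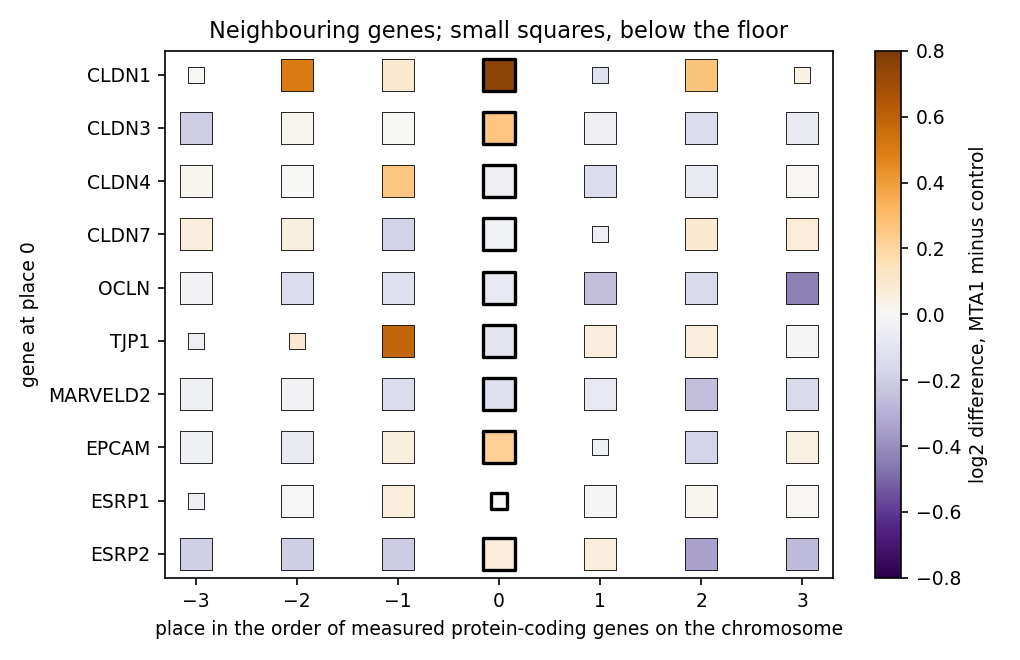
Log2 difference, MTA1 minus control, as colour, for each of the 10 genes (place 0, thick outline) and the 3 measured protein-coding genes on each side in chromosome order. Large squares reached the signal floor and small squares did not, and the row of CLDN1 shows P3H2 at place -2 and IL1RAP at place 2, both higher on the MTA1 array as deposited, by 0.50 and 0.27.

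Markers of other cell types were mostly below the floor, and their part in the values above was not tested. Of 7 measured fibroblast markers 4 were below the floor on both arrays, PDGFRA and PDGFRB among them, and the control signals ranged from 3.11 to 11.43 and the MTA1 signals from 3.01 to 11.90. The highest of these was FAP, at 11.43 and 11.90, while DCN stood at 3.89 and 3.53 and COL1A1 at 3.93 and 4.03. Of 5 leukocyte markers 4 were below the floor, PTPRC and CD3E among them, the exception being the lysosomal gene CD68 at 11.26 and 11.19. Of 5 endothelial markers PECAM1 alone reached it, at 4.12 and 4.08. In bulk RNA, fewer cells with a transcript and less transcript per cell cannot be told apart.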

How the data were processed

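Total RNA of 2 samples, 1 per group as their labels give it, was measured on arrays. The deposited values are log2 signals that the authors made with RMA, per the submitters' processing notes; its version, the build and the annotation release were not given in the sources used here. They were used as deposited. Of 70523 features, 23781 probe sets had 1 gene symbol and 1543 had several, and the latter named no gene. By gene identifier 21497 took the current RefSeq symbol (GRCh38.p14, used for names, neighbours and promoter windows) and 2284 kept their own. Each gene was its brightest probe set. A gene was kept if its higher value reached the floor of 3.62, and counted at a log2 difference of at least 1 in size. No test was possible, and the number of arrays limits the precision.

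The 10 genes and the 10 further lists, of 137 genes, were chosen with earlier results of these data known. Named were the 10 genes, MTA1, SNAI1, claudins at or above the floor, and up to 4 genes of largest difference per list; others (ST14, ADAM10, ADAM17, RBM47, FGFR2, the GRHL and OVOL genes, markers and neighbours) were added after their values were seen. No likeness ranking was made, since over 2 arrays any genes correlate fully. The steps recovered known differences in simulated data made from the control array. The added noise was smaller than the SD between probe sets, and only genes well above the floor were changed. Recovery near the floor was thus not tested. Alternatives changed the scaling, floor, probe set choice and threshold. The shift to the spikes was chosen after seeing the data. Python 3.11.15, numpy 2.4.6, pandas 2.3.3, statsmodels 0.14.6 and matplotlib 3.10.9 were used.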

Additional observations from a re-analysis of the deposited data

How the results depend on the processing

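The median difference of the 10-gene set, -0.037 as deposited, ranged from -0.037 to -0.002 under the other alternatives and was -0.28 after the shift to the hybridisation spikes, and 0 of its genes were at least 2-fold higher or lower in each setting that kept the 2-fold threshold. With the threshold at 1.5-fold, 1 gene, CLDN1, counted as higher. With the floor at percentile 75, a log2 signal of 5.67, 4 of the 10 genes were left, and the medians of the EPCAM partners and of the epithelial transcription factors fell below 0, to -0.005 and -0.03. After the shift to the hybridisation spikes, chosen after seeing the data, and with the floor set anew, the medians of the EPCAM partners and of the epithelial transcription factors moved to -0.25 and -0.18, as the shift lowers every value alike, those of the other tight junction genes, the splicing regulators, the genes spliced by ESRP and the repressors to -0.29, -0.32, -0.29 and -0.17, and EPCAM and ESRP2 turned to -0.03 and -0.17. Of centring, repeated quantile normalisation, loess (span 0.3) and the mean of all probe sets, centring alone changed a sign among the 10 genes, that of ESRP1, which was below the floor and went to 0.01. No paired analysis was possible because each group has 1 array. Leaving out an array was not possible for the same reason. CLDN7 and EPCAM lay within 0.6 log2 units of the floor, where signal over background limits what can be said.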
